A study of Mus musculus with 8 samples.

Results

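A set of 10 genes of antigen presentation and B cell maturation were followed through pre-B cell development, 10 of the 27179 genes in the count table. Of these, 5 belong to the MHC class II pathway (*Ciita*, *Cd74*, *H2-Aa*, *H2-Ab1* and *H2-Eb1*) and 5 encode surface receptors (*Ms4a1*, *Cd22*, *Cd40*, *Il2ra* and *Cxcr4*). They were taken by symbol, matched to the Entrez identifiers of the table, and all 10 were among the 17700 genes tested. In Ctrl cells *Ciita* and the 3 class II chain genes were lower in sPre-B than in early LPre-B cells by 2.16 to 2.75 times, whereas *Cd74* and the 5 receptor genes were higher. Of all genes tested 31.1% were called lower and 29.1% higher in this comparison. In cKO sPre-B cells all 5 class II genes and *Cd40* were higher than in Ctrl sPre-B cells, by 2.32 to 3.72 times, where 19.8% of all genes tested were called higher.

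MHC class II molecules are pairs of an alpha and a beta chain that carry peptides from endosomes to the surface of B cells, dendritic cells and macrophages. The invariant chain, made from *Cd74*, fills their groove until the H2-DM complex exchanges it for peptide. Transcription of the class II genes depends on CIITA, a coactivator that binds no DNA itself and is recruited by the RFX, NF-Y and CREB factors bound at the X and Y boxes of these promoters. In the B lineage, class II and receptors such as CD20 (*Ms4a1*), CD22, CD40 and CD25 (*Il2ra*) mark steps of maturation, and CXCR4 holds precursors in the bone marrow.

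Early large pre-B (LPre-B) and small pre-B (sPre-B) cells were sorted from the bone marrow of mice 8 to 16 weeks old, with 2 libraries (replicates 1 and 2) in each of 4 groups. All mice carried *Upf1* Flox/Flox and 1 pre-rearranged heavy chain allele (*Igh* B1-8hi/+) on a C57BL/6 background. Ctrl mice were *Mb1* +/+ and had no Cre, and cKO mice were *Mb1* Cre/+, so that Cre in the B lineage removes exons 4 to 6 of *Upf1*, which encodes an RNA helicase of mRNA decay. *Mb1* is the *Cd79a* locus, so the Cre protein and the loss of 1 *Cd79a* allele cannot be told apart from the deletion of *Upf1*. The early LPre-B gate was B220+, surface IgM-, CD43+ and CD2- cells of large size, and the sPre-B gate was CD43 low, CD25+ and CD2+ cells of small size. The labels do not say which mice the libraries came from, and for the cKO groups the spread that the P-values rest on may be technical.

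Totals lay between 68516857 and 160426338 counts per library. Levels are given as CPM, the share of a library's counts that a gene takes on a scale common to all libraries, after TMM scaling, and 3 counts, the smallest level taken as detectable, correspond to 0.0217 to 0.0426 CPM, counting error only. The count of *Upf1* did not show the deletion. It was 237 and 213 CPM in the early LPre-B cells of Ctrl and 244 and 258 CPM in those labelled cKO. In sPre-B cells it was 186 and 198 CPM in Ctrl and 282 and 293 CPM in those labelled cKO, a Log2FC of 0.59 (adjusted P = 0.00245). The gene-level count covers every exon and does not check the deleted ones, so cKO and Ctrl stand here for the labels of the libraries. By immunoblot, the paper reports that UPF1 protein was absent from sPre-B cells of cKO mice with the pre-rearranged heavy chain allele. It reports the same loss in early LPre-B cells of cKO mice without that allele. The deletion was not tested in the libraries counted here. *Cd79a* was lower in both comparisons of cKO with Ctrl, at 543 to 640 against 160 to 188 CPM in early LPre-B cells and at 1478 to 1602 against 325 to 405 CPM in sPre-B cells. The B lineage genes *Cd79b*, *Pax5* and *Ebf1* were at 261 CPM or more in each library. The surrogate light chain gene *Igll1* was at 213 to 338 CPM in early LPre-B libraries and at 5.76 to 10.2 CPM in sPre-B libraries. The replicate 2 libraries of Ctrl had 151 to 304 counts of the X-inactivation transcript *Xist* against 290740 to 513937 in the other 6, so the 2 Ctrl libraries of a stage came from mice of different sex. All libraries labelled cKO were among those 6 and had 5 to 34 counts of Y-linked genes. Sex was thus not balanced between cKO and Ctrl. In bulk RNA a smaller share of expressing cells and less RNA per cell cannot be told apart.

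The 3 chain genes lie close together in the class II region of chromosome 17 (mm10), *H2-Ab1* at chr17:34257689-34269419, *H2-Aa* at chr17:34282744-34287823 on the minus strand and *H2-Eb1* at chr17:34305867-34316674. *Ciita* lies at chr16:10480059-10528418. Because these chain genes moved together, some of the promoters at hand are shown as the 150 bases before the transcription start. They were read from RefSeq promoter windows of build GRCm38.p6. *H2-Aa* (chr17:34287824-34287973, minus strand) and *H2-Eb1* (chr17:34305717-34305866) are members, *H2-Eb2* (chr17:34325525-34325674) is the chain gene that moved like them, and *H2-Ob* (chr17:34238755-34238904) encodes a loading regulator that moved the other way with stage. Capitals mark CCAAT (the Y box core), AGCAAC (an X box core) and TGACGT (a site for CREB factors) on either strand, so that CCAAT on the other strand reads ATTGG.
H2-Aa: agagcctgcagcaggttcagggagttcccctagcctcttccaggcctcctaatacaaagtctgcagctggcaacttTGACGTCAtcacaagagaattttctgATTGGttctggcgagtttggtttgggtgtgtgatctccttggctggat
H2-Eb1: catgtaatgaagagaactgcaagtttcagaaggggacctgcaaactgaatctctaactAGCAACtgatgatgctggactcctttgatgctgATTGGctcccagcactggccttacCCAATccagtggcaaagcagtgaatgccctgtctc
H2-Eb2: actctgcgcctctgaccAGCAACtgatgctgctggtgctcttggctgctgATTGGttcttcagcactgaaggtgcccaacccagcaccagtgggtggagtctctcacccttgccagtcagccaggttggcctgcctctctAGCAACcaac
H2-Ob: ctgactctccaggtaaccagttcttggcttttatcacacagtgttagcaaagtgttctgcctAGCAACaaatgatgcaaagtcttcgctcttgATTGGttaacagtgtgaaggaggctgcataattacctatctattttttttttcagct

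Each of the 4 promoters holds a CCAAT core on the strand opposite to the gene, 48 bases before the start in *H2-Aa*, 59 in *H2-Eb1*, 100 in *H2-Eb2* and 57 in *H2-Ob*. An AGCAAC core stands upstream of it in *H2-Eb1*, *H2-Eb2* and *H2-Ob*, 92, 133 and 88 bases before the start. In *H2-Aa* the letters AGCAAC were not found, and TGACGT was found on both strands in overlapping positions 74 and 72 bases before the start. Of all 32851 windows of 300 bases, 37.41% hold CCAAT, 14.79% AGCAAC, 7.51% TGACGT and 5.84% both of the first pair. The *H2-Ob* window holds CCAAT and AGCAAC as those of *H2-Eb1* and *H2-Eb2* do, although *H2-Ob* rose with stage in Ctrl and they fell. Of the loading genes not shown, *H2-Oa*, which also rose, holds both cores. *H2-DMb1* and *H2-DMb2* hold CCAAT and no AGCAAC. *H2-DMa*, which fell in Ctrl, holds CCAAT in 1 of its 2 windows and AGCAAC in neither. The windows of *Cd22*, *Il2ra* and *Cxcr4* hold no match to the 3 motifs. No window was at hand for *Ciita*, *Cd74*, *H2-Ab1*, *Ms4a1* and *Cd40*.

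*Ciita*, the coactivator, was at 69.7 and 83.6 CPM in the early LPre-B cells of Ctrl and at 31.6 and 27.7 CPM in Ctrl sPre-B cells. In cKO it was at 92.2 and 85.4 CPM in early LPre-B cells and at 126 and 86.3 CPM in sPre-B cells. Both Ctrl sPre-B libraries lay below the other 6, and the 2 groups labelled cKO overlapped each other and lay above both Ctrl groups. The stage change in Ctrl was a Log2FC (log2 of the fold change) of −1.37 (SE 0.175, adjusted P = 0.000183, edgeR quasi-likelihood test with Benjamini-Hochberg adjustment across the 17700 genes, as for each adjusted P below). In cKO the stage change was 0.26 (SE 0.171, adjusted P = 0.219), and it was −0.045 without replicate 1 of the cKO sPre-B libraries (adjusted P = 0.816) and 0.50 without replicate 2 (adjusted P = 0.0184). Against Ctrl, *Ciita* in libraries labelled cKO differed by 0.21 at the early LPre-B stage (SE 0.171, adjusted P = 0.376) and was higher by 1.84 at the sPre-B stage (SE 0.177, adjusted P = 0.000167). *Dexi*, a gene on the opposite strand that shares 329 exon bases with *Ciita*, was at 7.8 to 18 CPM, and the directional libraries were aligned without strand.

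**Figure D1:**
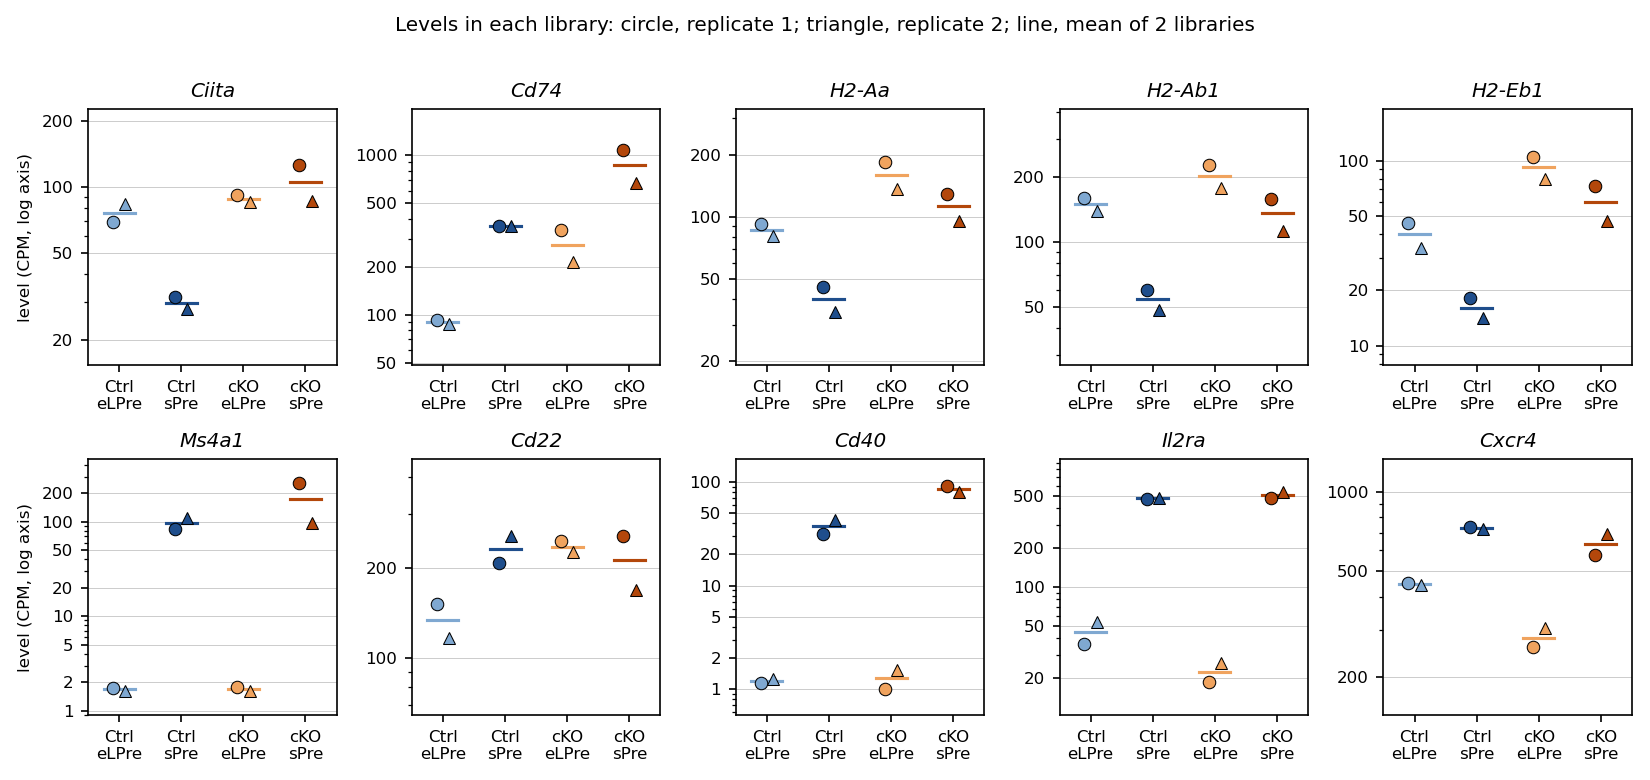
Level of each of the 10 genes in the 8 libraries, in CPM on a log axis, with circles for replicate 1, triangles for replicate 2 and a line at the mean of the 2 libraries. *Ciita* and the chain genes are lowest in both Ctrl sPre-B libraries, and *Ms4a1* in cKO sPre-B cells is split between 255 and 96.9 CPM.

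The class II chain genes encode the alpha chain (*H2-Aa*) and beta chain (*H2-Ab1*) of I-A and the beta chain of I-E (*H2-Eb1*). *H2-Aa* was at 92.6 and 81.2 CPM in the early LPre-B cells of Ctrl, 45.9 and 34.5 in Ctrl sPre-B cells, 184 and 136 in cKO early LPre-B cells and 130 and 95.7 in cKO sPre-B cells. *H2-Ab1* was at 159 and 139, 59.9 and 48.3, 228 and 178, and 158 and 113 CPM in the same order. *H2-Eb1* was at 46.3 and 34.0, 18.1 and 14.2, 105 and 79.3, and 72.7 and 47.3 CPM. For each of the 3 genes the Ctrl sPre-B libraries were the lowest and the cKO early LPre-B libraries the highest. The sPre-B libraries labelled cKO lay above every Ctrl library for *H2-Aa* and *H2-Eb1*, and overlapped the Ctrl early LPre-B libraries for *H2-Ab1*. Replicate 1 was higher than replicate 2 in each group.

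In Ctrl the 3 chains fell with stage by similar amounts, with a Log2FC of −1.11 for *H2-Aa* (SE 0.202, adjusted P = 0.00141), −1.46 for *H2-Ab1* (SE 0.192, adjusted P = 0.000216) and −1.32 for *H2-Eb1* (SE 0.243, adjusted P = 0.00154). In cKO *H2-Ab1* fell by 0.58 (SE 0.188, adjusted P = 0.0245) and *H2-Eb1* by 0.62 (SE 0.236, adjusted P = 0.0464), while *H2-Aa* missed the threshold at −0.51 (SE 0.199, adjusted P = 0.0514; 0.0157 with DESeq2). Both calls in cKO were lost without replicate 1 of the cKO early LPre-B libraries (*H2-Ab1* −0.39, adjusted P = 0.154 and *H2-Eb1* −0.41, adjusted P = 0.246) or without replicate 2 of the cKO sPre-B libraries (−0.36, adjusted P = 0.155 and −0.35, adjusted P = 0.259). Without replicate 1 of the latter, *H2-Eb1* was at −0.96, and in a fit of only the libraries compared its adjusted P was 0.0528. The transmembrane E3 ligase gene *Marchf8*, a class II regulator, also fell, by 1.18 in Ctrl and 1.55 in cKO.

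Against Ctrl, the cKO sPre-B libraries were higher for *H2-Aa* by a Log2FC of 1.49 (SE 0.203, adjusted P = 0.000903), for *H2-Ab1* by 1.33 (SE 0.192, adjusted P = 0.00118) and for *H2-Eb1* by 1.90 (SE 0.246, adjusted P = 0.000692). At the early LPre-B stage *H2-Eb1* was higher by 1.20 (SE 0.239, adjusted P = 0.00627) and *H2-Aa* by 0.88 (SE 0.200, adjusted P = 0.0110), whereas *H2-Ab1* differed by 0.45 without passing the test (SE 0.188, adjusted P = 0.106; 0.0496 with DESeq2). The *H2-Aa* call at the early stage was lost without replicate 2 of Ctrl (adjusted P = 0.0687) or replicate 1 of the cKO libraries (adjusted P = 0.0739). *H2-Eb2*, a further beta chain gene, was at 0.936 to 7.4 CPM in Ctrl libraries, 31.9 and 32.3 CPM in cKO early LPre-B and 6.68 and 5.77 CPM in cKO sPre-B cells. It fell with stage by 2.32 in Ctrl and 2.37 in cKO and was higher in cKO by 2.31 and 2.27, each with an adjusted P of 0.000338 or less. *H2-Ea*, the partner of *H2-Eb1*, has a promoter deletion in C57BL/6 mice, and its level was 0.0355 to 0.439 CPM in all 8 libraries.

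*Cd74*, the invariant chain, moved with stage in the direction opposite to the chains it guards. It was at 92 and 86.7 CPM in the early LPre-B cells of Ctrl and at 362 and 359 CPM in Ctrl sPre-B cells. In cKO it was at 337 and 213 CPM in early LPre-B cells and at 1075 and 664 CPM in sPre-B cells. The Ctrl libraries of a stage agreed closely, those labelled cKO were split with replicate 1 higher, and no 2 groups overlapped. *Cd74* rose with stage by 2.01 in Ctrl (SE 0.260, adjusted P = 0.000195) and by 1.66 in cKO (SE 0.257, adjusted P = 0.000534). It was higher in cKO than in Ctrl by 1.62 at the early LPre-B stage (SE 0.257, adjusted P = 0.00220) and by 1.27 at the sPre-B stage (SE 0.254, adjusted P = 0.00561). In RPKM, which is CPM per kilobase of exon and allows genes to be compared, *Cd74* in Ctrl stood at 63.1 ± 2.60 RPKM in early LPre-B cells (SD, n = 2), near *H2-Aa* at 77.0 ± 7.13 and below *H2-Ab1* at 123 ± 12.0. In Ctrl sPre-B cells it stood at 255 ± 1.47 RPKM, against 35.7 ± 7.14 for *H2-Aa* and 44.6 ± 6.77 for *H2-Ab1*.

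The other genes of peptide loading split between these patterns. Of the 14 genes of class II chains and loading other than the members, 9 rose and 3 fell with stage in Ctrl (median Log2FC 0.79), and 9 rose and 2 fell in cKO (median 0.94), where the medians over all genes tested were 0.02 and 0.05. *Ifi30*, the thiol reductase of endosomes, rose by 2.69 in Ctrl and 3.62 in cKO, and *Ctss*, the protease that trims the invariant chain, by 2.23 and 2.57. *H2-Oa* and *H2-Ob*, which form the H2-DO inhibitor of H2-DM, rose by 2.26 and 1.38 in Ctrl and by 3.09 and 1.92 in cKO. *Marchf1*, the E3 ligase that removes class II from the surface, rose by 3.03 in Ctrl and 4.02 in cKO. *H2-DMa*, the alpha chain of H2-DM, moved like the class II chains in Ctrl and fell by 0.58, while its change in cKO was −0.11 and not called.

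Against Ctrl, 4 of these 14 genes were higher and 1 lower in cKO early LPre-B cells, and 8 were higher and 1 lower in cKO sPre-B cells, with medians of 0.25 and 0.87. *H2-DMa* was at 13.5 to 15.1 CPM in Ctrl and 24.2 to 26.5 CPM in cKO early LPre-B cells, and at 9.13 to 9.93 against 20.1 to 26.9 CPM in sPre-B cells. The H2-DM beta chain genes *H2-DMb1* and *H2-DMb2* were higher by 1.57 and 2.32 at the early stage and by 2.04 and 1.91 at the later one. They are near-identical copies, and reads may be split between them, so their separate values are uncertain. *H2-Oa*, *H2-Ob* and *Ifi30* were higher in cKO sPre-B cells by 1.03, 0.45 and 0.80, and in early LPre-B cells their differences were 0.20, −0.08 and −0.14, none called. *Ctss* was called in neither comparison of cKO with Ctrl, at −0.26 (adjusted P = 0.0965) and 0.08 (adjusted P = 0.571).

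Among the transcription factors of class II, the RFX subunit gene *Rfx5* was at 47.3 and 49.4 CPM in the early LPre-B cells of Ctrl, 77.8 and 88.6 in Ctrl sPre-B cells, 65.1 and 61.3 in cKO early LPre-B cells and 139 and 128 in cKO sPre-B cells. It was thus called higher in all 4 comparisons, by 0.39 to 1.08, including the stage change in Ctrl in which *Ciita* fell. *Rfxank* rose with stage by 0.88 and 0.43 and was higher in cKO at the early stage by 0.59, and *Rfxap* was not called in any comparison (−0.24 to 0.01). The NF-Y subunit genes *Nfya*, *Nfyb* and *Nfyc* fell with stage by 0.24 to 0.71 in Ctrl and by 0.23 to 0.44 in cKO. Of the 19 factors other than *Ciita*, 12 rose and 3 fell with stage in Ctrl and 14 rose and 3 fell in cKO. Against Ctrl, 2 were higher and 10 lower at the early stage and 4 higher and 6 lower at the sPre-B stage. In sPre-B cells *Spi1*, which encodes PU.1, was lower by 0.83 and *Ebf1*, an early B cell factor gene, by 0.80.

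The class I pathway was counted beside class II. Of its 9 genes 4 rose and 4 fell with stage in Ctrl, and in cKO 4 rose and 3 fell. Against Ctrl, 1 was higher in early LPre-B cells and 3 in cKO sPre-B cells, and none was lower, by edgeR, by DESeq2 or at an unadjusted P under 0.05. *H2-K1*, a class I heavy chain, rose by 1.04 and 1.06. *Nlrc5*, the coactivator that does for class I what CIITA does for class II, fell with stage by 0.60 and 0.41 and was higher in cKO by 0.54 and 0.72. *Ciita* differed by −1.37 and 1.84 in the first and the last of these comparisons.

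**Figure D2:**
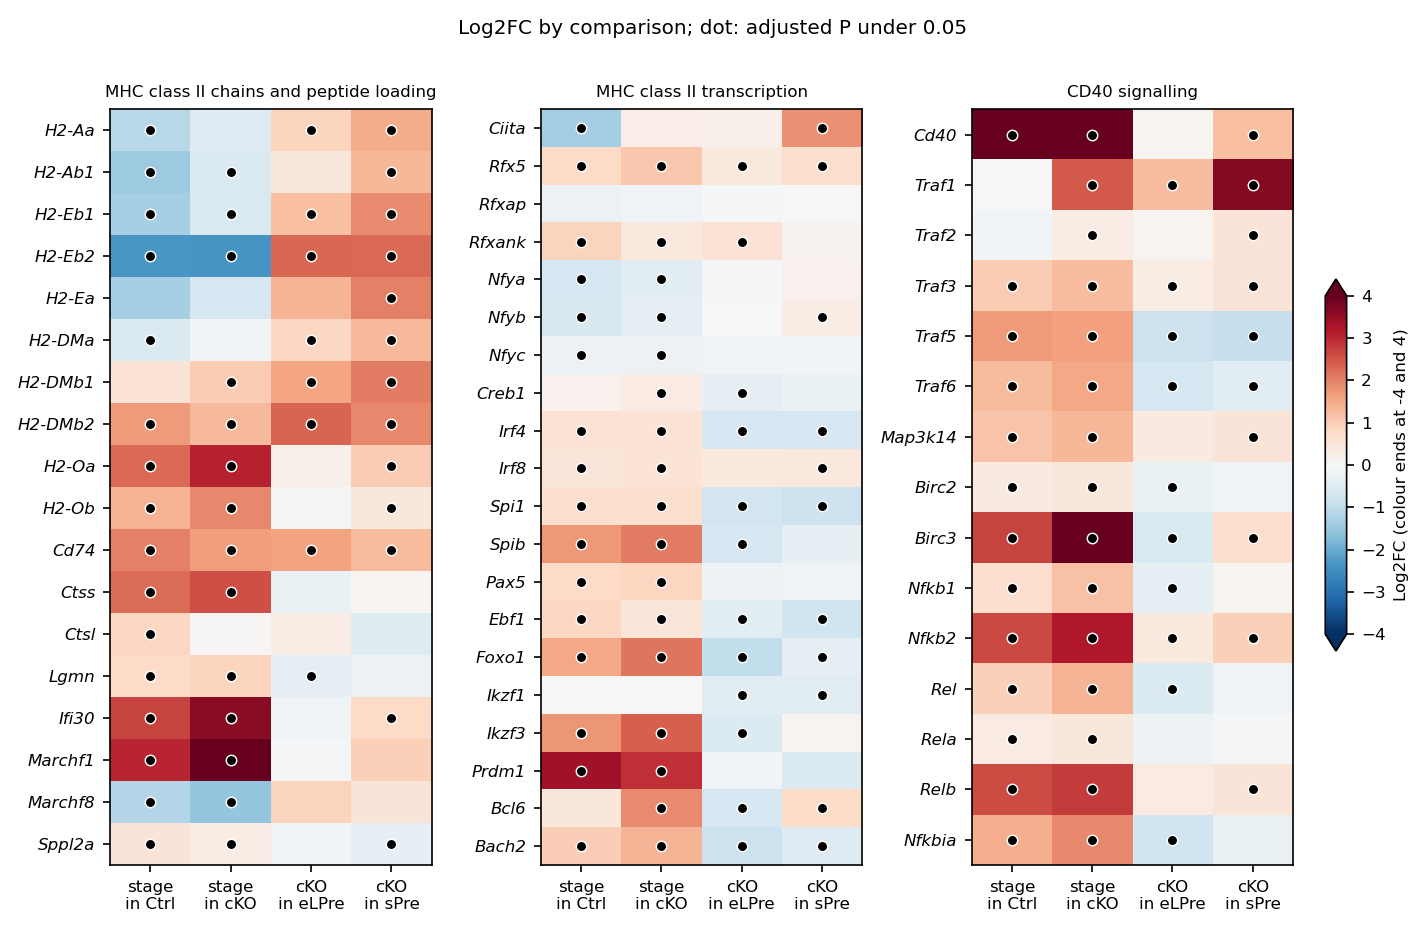
Log2FC of the genes of class II presentation, class II transcription and CD40 signalling in the 4 comparisons between groups, with colour from −4 to 4 and a dot where the adjusted P was under 0.05. *H2-Eb2* is blue with stage and red in cKO, *Rfx5* is red and dotted in all 4 columns, and *Birc3*, *Nfkb2* and *Relb* are dark red with stage.

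Class II is also high in dendritic cells and macrophages, and the markers of those cells were read beside these values. The summed level of 16 myeloid and dendritic genes was 114 to 139.5 CPM in Ctrl early LPre-B, 335 to 424 in Ctrl sPre-B, 56.9 to 62.5 in cKO early LPre-B cells and 552 to 588 in cKO sPre-B cells. The sum was thus higher in sPre-B than in early LPre-B cells of both genotypes, as *Cd74* was. *Ciita*, *H2-Aa*, *H2-Ab1* and *H2-Eb1* instead fell with stage in Ctrl. In cKO the sum was lower than in Ctrl at the early LPre-B stage, at which *Cd74*, *H2-Aa* and *H2-Eb1* were higher in cKO. At the sPre-B stage the sum was higher in cKO, as all 5 class II members were. Most of the sum came from *Itgax* (63.2 to 376 CPM in sPre-B cells) and *Itgam* (176 to 262 CPM in sPre-B cells), the genes of CD11c and CD11b. Both proteins were among the lineage stains that the gates excluded. The defining genes *Csf1r*, *Adgre1*, *Zbtb46*, *Xcr1* and *Clec9a* were at 4.996 CPM or less in each library and none was at 0. Of the remaining 9, *Lyz2* was at 4.25 to 26.2 CPM and *Cd68* at 3.83 to 7.52 CPM, the other 7 were at 3.15 CPM or less, and *Cd14* was at 0 in 1 library. *C1qa*, a complement gene of macrophages, rose by 4.11 with stage in cKO (adjusted P = 0.00126) and was at 0.0154 to 1.21 CPM. Of the list, 7 rose with stage in Ctrl and 12 in cKO, and in cKO sPre-B cells 1 was higher (*Itgax*, by 1.99) and 1 lower (*Itgam*, by 0.46). In cKO early LPre-B cells 1 was higher and 3 were lower. The part of such cells in the values of the class II genes was not tested, between stages or between genotypes. Markers of neutrophils and erythroid cells summed to 13.0 to 92.3 CPM, with 4 of 10 higher with stage in Ctrl and 5 higher and 1 lower in cKO, and 1 and 2 lower in cKO than in Ctrl at the early LPre-B and sPre-B stages. Markers of T and NK cells summed to 3.3 to 19.5 CPM, with 5 and 4 of the 9 tested lower with stage in Ctrl and cKO, 2 lower in cKO early LPre-B cells, and 1 higher and 1 lower in cKO sPre-B cells.

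*Ms4a1* (chr19:11249675-11266241) encodes CD20, a surface protein that appears late in B cell precursors. It was at 1.75 and 1.61 CPM in the early LPre-B cells of Ctrl and at 1.77 and 1.62 CPM in those labelled cKO. In sPre-B cells it was at 84.6 and 110 CPM in Ctrl and at 255 and 96.9 CPM in cKO. The stages were far apart in both genotypes, and the sPre-B library of replicate 1 labelled cKO stood alone above the other 3. *Ms4a1* rose with stage by 5.85 in Ctrl (SE 0.452, adjusted P = 1.11e-05) and by 6.69 in cKO (SE 0.465, adjusted P = 6.56e-06). The difference of cKO from Ctrl was 0.01 at the early stage (SE 0.430, adjusted P = 0.995) and 0.85 at the sPre-B stage (SE 0.355, adjusted P = 0.0969). Without replicate 1 of the cKO sPre-B libraries the latter was −0.0081 (adjusted P = 0.982), and without replicate 2 it was 1.39 (adjusted P = 0.000824).

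That library was also the highest for *Fcer2a*, 1 of 9 listed genes of mature B and plasma cells. *Fcer2a*, which encodes CD23 of mature follicular B cells, was at 83.8 CPM in replicate 1 and 29.9 CPM in replicate 2 of cKO sPre-B cells, and at 1.45 to 6.03 CPM in the other 6 libraries. The summed level of 9 genes of mature B and plasma cells was 390 to 440 CPM in Ctrl sPre-B and 453 to 515 CPM in cKO sPre-B cells, against 121 to 152 CPM in early LPre-B libraries of both genotypes. Of these genes 4 rose with stage in Ctrl and 5 in cKO, and 3 were higher and 1 lower in cKO sPre-B cells than in Ctrl. In that last comparison the median Log2FC of the 9 genes was −0.35, so *Fcer2a* does not stand for the list. In cKO early LPre-B cells 2 were lower. Their part in the values of *Ms4a1*, *Cd74* and the class II chains was not tested. Among the 24 tested genes of B maturation at the surface other than *Ms4a1*, 19 rose with stage in each genotype, with *Cd2*, a gene of the gate, at 4.93 in Ctrl and *Ms4a4c* at 6.42 in cKO. Against Ctrl, 4 of the 24 were higher and 6 lower in early LPre-B cells and 8 higher and 5 lower in cKO sPre-B cells. The largest increase of these was that of *Icosl*, the ligand of the T cell costimulator ICOS, by 2.22 and 4.07.

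*Cd22* (chr7:30865402-30880342, minus strand) encodes a lectin that restrains the B cell receptor. It was at 151 and 117 CPM in the early LPre-B cells of Ctrl, the lowest group, and at 206 and 254 CPM in Ctrl sPre-B cells. In cKO it was at 245 and 224 CPM in early LPre-B cells and at 254 and 169 CPM in sPre-B cells. These 3 groups overlapped one another. *Cd22* rose with stage by 0.78 in Ctrl (SE 0.204, adjusted P = 0.00953), a call lost without replicate 2 of the Ctrl early LPre-B libraries (0.68, adjusted P = 0.0541), and its stage difference in cKO was −0.15 (SE 0.203, adjusted P = 0.541). It was higher in cKO early LPre-B cells by 0.81 (SE 0.204, adjusted P = 0.0172), which was lost without replicate 2 of Ctrl (adjusted P = 0.0919) or replicate 1 of the cKO libraries (adjusted P = 0.0829). At the sPre-B stage the difference was −0.12 (SE 0.203, adjusted P = 0.679), and without replicate 2 of the cKO libraries it was 0.14. An antisense gene on the opposite strand shares 479 exon bases with *Cd22* and has no row in the count table. Reads from it may be among those of *Cd22*, since the strand setting of the counting is not given.

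The partners of CD22 in inhibition were read beside it. *Ptpn6*, the phosphatase SHP-1 that CD22 recruits, was called in no comparison, with a Log2FC of −0.20 to 0.32. *St6gal1*, the sialyltransferase that makes CD22 ligands, rose with stage by 0.43 and 0.75. *Lyn*, the kinase that phosphorylates CD22, rose by 1.41 in each genotype and was lower in cKO by 0.54 at both stages. Of the 12 co-receptor and inhibitor genes other than *Cd22*, 7 rose with stage in Ctrl and 7 in cKO, and *Pirb*, an inhibitory receptor, rose most, by 3.83 and 6.15. *Pirb* was at 43.3 and 86.3 CPM in cKO sPre-B cells and 18.8 and 23.5 CPM in Ctrl. Of the 12, 0 were higher and 2 lower in cKO early LPre-B cells, and 2 were higher and 3 lower in cKO sPre-B cells.

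*Cd40* (chr2:165055627-165072948) encodes the receptor through which T cells help B cells. It was at 1.14 and 1.24 CPM in the early LPre-B cells of Ctrl and at 1.01 and 1.52 CPM in those labelled cKO. In sPre-B cells it was at 31.5 and 43.1 CPM in Ctrl and at 92.6 and 80.8 CPM in cKO. Genotypes overlapped at the early stage and did not at the sPre-B stage. The rise with stage was 4.98 in Ctrl (SE 0.237, adjusted P = 1.37e-06) and 6.09 in cKO (SE 0.245, adjusted P = 9.47e-07). In cKO sPre-B cells *Cd40* was higher than in Ctrl by 1.22 (SE 0.194, adjusted P = 0.00189), and at the early stage the difference was 0.11 (SE 0.230, adjusted P = 0.766).

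The genes of the CD40 pathway were counted beside their receptor. Of the 14 other than *Cd40*, 12 rose, none fell and 2 were not called with stage in Ctrl, and all 14 rose in cKO, where 29.1% and 31.6% of all genes tested rose. No fall was found by edgeR at an unadjusted P under 0.05 or by DESeq2 in either genotype. The largest rise was that of *Birc3*, an inhibitor of apoptosis that joins the TRAF complex, from 34.5 and 44.7 CPM to 253 and 268 CPM in Ctrl and from 23.9 and 28.2 CPM to 446 and 376 CPM in cKO. *Nfkb2* and *Relb*, which make the subunits of noncanonical NF-kappaB, rose by 2.64 and 2.60 in Ctrl and by 3.20 and 2.80 in cKO. *Traf3*, which holds this branch inactive, rose by 1.01 and 1.22, and *Traf6* by 1.26 and 1.54, while *Traf2* was at −0.10 in Ctrl (adjusted P = 0.307) and rose by 0.29 in cKO.

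Between genotypes, calls were made in both directions at each stage. At the early LPre-B stage 3 of the 14 were higher in cKO and 7 lower, among them *Traf6* (−0.69) and *Nfkbia* (−0.78). In sPre-B cells 7 were higher, 2 lower and 5 not called. *Traf1*, an adaptor induced by NF-kappaB, was at 0.596 to 0.946 CPM in all 4 Ctrl libraries, 1.84 and 1.79 CPM in cKO early LPre-B and 11.2 and 8.73 CPM in cKO sPre-B cells. It was higher in cKO by 1.23 and 3.68 and had a stage difference of 0.01 in Ctrl ( adjusted P = 0.987).

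*Il2ra* (chr2:11642807-11693193) encodes CD25, a protein required by the sPre-B gate, so its rise with stage is tied to the sort. It was at 36.6 and 53.6 CPM in the early LPre-B cells of Ctrl and at 18.6 and 25.8 CPM in those labelled cKO, 2 groups that did not overlap. In sPre-B cells it was at 476 and 479 CPM in Ctrl and 481 and 532 CPM in cKO. The Log2FC with stage was 3.41 in Ctrl (SE 0.217, adjusted P = 4.3e-06) and 4.51 in cKO (SE 0.228, adjusted P = 1.93e-06). In early LPre-B cells, where CD25 was not part of the gate, *Il2ra* was lower in cKO by a Log2FC of −1.02 (SE 0.201, adjusted P = 0.00586), or −0.67 without replicate 2 of Ctrl (adjusted P = 0.0366). At the sPre-B stage the difference was 0.09 (SE 0.197, adjusted P = 0.773). *Cd2* and *Spn*, the genes of the other markers that separate the gates, differed by 0.01 (adjusted P = 0.968) and −0.57 (adjusted P = 0.0172) between cKO and Ctrl in early LPre-B cells. Of the 5 genes of the gate, *Il2ra* included, 4 rose and 1 fell with stage in each genotype, 3 were lower in cKO early LPre-B cells and none was called between genotypes in sPre-B cells, by edgeR, by DESeq2 or at an unadjusted P under 0.05.

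The other chains of the IL-2 receptor and its relatives were read beside *Il2ra*. *Il2rb*, the signalling chain of the IL-2 receptor, was at 0.0231 to 0.464 CPM in all 8 libraries and was called in no comparison. *Il2rg*, the common gamma chain, was at 33.2 to 41.6 CPM in early LPre-B and 74.0 to 99.1 CPM in sPre-B libraries and rose with stage by 1.13 and 1.30. *Il4ra* and *Il21r*, which pair with the gamma chain, rose by 3.08 and 3.05 in Ctrl and by 2.87 and 3.35 in cKO. *Jak3*, the kinase bound to the gamma chain, fell with stage by 1.39 in Ctrl and 0.54 in cKO and was higher in cKO sPre-B cells by 1.16. Of the 10 genes besides *Il2ra*, 5 rose and 1 fell in Ctrl and 6 rose and 1 fell in cKO. Against Ctrl, 1 was higher and 1 lower in early LPre-B and 2 were higher and 1 lower in cKO sPre-B cells.

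*Cxcr4* (chr1:128588199-128592293, minus strand), the receptor of CXCL12, was the most abundant member per kilobase of exon in Ctrl, at 249 ± 3.20 RPKM in early LPre-B and 404 ± 6.11 RPKM in sPre-B cells (SD, n = 2). In cKO sPre-B cells *Cd74* stood above it, at 614 ± 205 against 351 ± 46.1 RPKM, and in cKO early LPre-B cells they were at 194 ± 62.1 and 156 ± 18.2 RPKM, within the spread of the libraries. In CPM, the level of *Cxcr4* was 453 and 445 CPM in the early LPre-B cells of Ctrl and 738 and 722 CPM in Ctrl sPre-B cells. In cKO it was 258 and 304 CPM in early LPre-B and 575 and 693 CPM in sPre-B cells. No 2 of the 4 groups overlapped. *Cxcr4* rose with stage by 0.70 in Ctrl (SE 0.135, adjusted P = 0.00199) and by 1.17 in cKO (SE 0.137, adjusted P = 0.000104). It was lower in cKO early LPre-B cells by a Log2FC of −0.68 (SE 0.135, adjusted P = 0.00637), a call lost without replicate 1 of those libraries (−0.56, adjusted P = 0.0624), and at the sPre-B stage the difference was −0.20 (SE 0.135, adjusted P = 0.277).

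*Ackr3*, the scavenger receptor of the same ligand, was at 0.0367 to 0.116 CPM in early LPre-B libraries and 3.29 to 5.79 CPM in sPre-B libraries, and rose by 5.10 and 5.91. The ligand gene *Cxcl12*, made by stroma, was at 4.16 to 7.46 CPM in the replicate 1 library of each group and at 0.223 to 1.05 CPM in the replicate 2 libraries. *S1pr1*, the egress receptor that opposes retention by CXCR4, rose with stage by 3.40 and 4.07 and was lower in cKO by 1.12 at the early stage and by 0.45 at the sPre-B stage. *Cxcr5*, which guides B cells to follicles, fell with stage in Ctrl by 1.57 and rose in cKO by 1.10, at 1.79 to 13.4 CPM. Of the 20 positioning genes other than *Cxcr4*, 9 rose and 4 fell in Ctrl and 11 rose and 3 fell in cKO. Against Ctrl, 1 was higher and 5 lower in early LPre-B and 4 were higher and 4 lower in cKO sPre-B cells.

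**Figure D3:**
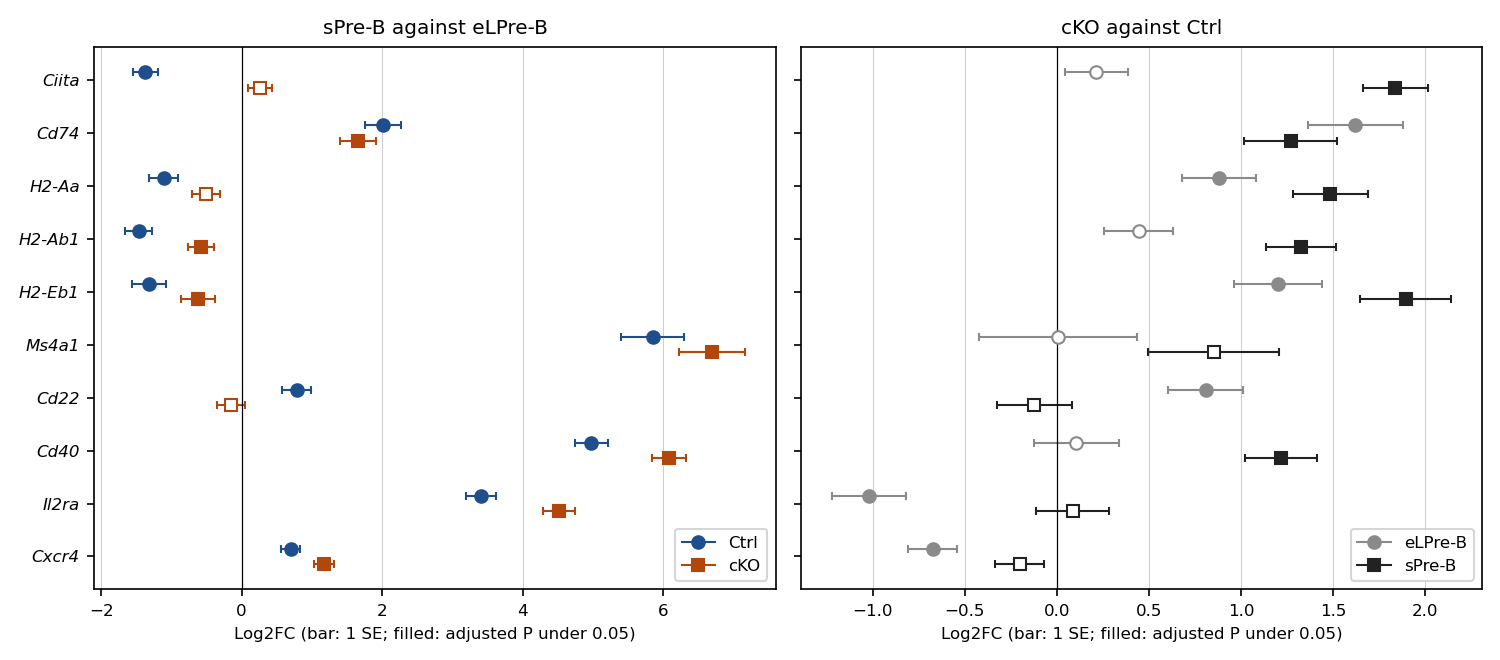
Log2FC of the 10 genes between stages (left, Ctrl as circles and cKO as squares) and between genotypes (right, early LPre-B as circles and sPre-B as squares), with bars of 1 SE and filled symbols for an adjusted P under 0.05. *Ciita* and the chains lie left of 0 with stage in Ctrl, and *Ciita* moves from 0.21 to 1.84 between the circle and the square on the right.

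The counts of members are to be read against those of all genes, since much of the transcriptome changed. In Ctrl, 6 members rose and 4 fell with stage, beside 29.1% of all genes tested higher and 31.1% lower. In cKO, 5 rose and 2 fell, beside 31.6% and 31.1%. In cKO early LPre-B cells 4 were higher and 2 lower, beside 14.5% and 16.9%, and in cKO sPre-B cells 6 were higher, beside 19.8%, and 0 lower, beside 14.9%. No member was lower there at an unadjusted P under 0.05 with edgeR or with DESeq2 either. Without replicate 1 of the cKO early LPre-B libraries, 2 members were higher and 1 lower in the early LPre-B comparison, and without replicate 2 of Ctrl 2 were higher. The members that fell with stage in cKO numbered 0 without replicate 1 of the early LPre-B or replicate 2 of the cKO sPre-B libraries, while 4645 to 5704 of all genes fell with 1 library left out in turn. The median Log2FC of the members was 0.74, 0.71, 0.33 and 1.24 in the 4 comparisons, against 0.02, 0.05, −0.06 and 0.01 over all genes tested. Libraries of the compared groups did not overlap for 10, 8, 8 and 8 members, against 80.8%, 83.1%, 66.3% and 70.8% of all genes. Each Ctrl and each cKO group enters 2 of these comparisons, so they are not independent.

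Whether the difference between cKO and Ctrl itself differed between stages was tested as the interaction of stage and genotype. With edgeR's quasi-likelihood test *Ciita* was the 1 member that passed, while DESeq2 called 4 higher (*Ciita*, *H2-Ab1*, *Cd40* and *Il2ra*), beside 1035 genes higher and 704 lower over all genes, where edgeR called 467 and 283. For *Ciita* the difference was larger at the sPre-B stage by 1.62 (SE 0.244, adjusted P = 0.0139), with 2.64% of all genes called in this direction. No member was called in the other direction, beside 1.6% of all genes, although *Cd22* had an unadjusted P under 0.05 there and DESeq2 called it. The *Ciita* call was lost without replicate 2 of the Ctrl early LPre-B libraries (1.40, adjusted P = 0.0654), replicate 2 of the Ctrl sPre-B libraries (1.45, adjusted P = 0.0555) or replicate 1 of the cKO early LPre-B libraries (1.68, adjusted P = 0.0516). *Cd40* and *Il2ra* were at 1.11 each (SE 0.300 and 0.281, adjusted P = 0.0768 and 0.0644), *H2-Ab1* at 0.88 (SE 0.267, adjusted P = 0.104) and *Cd22* at −0.93 (SE 0.287, adjusted P = 0.109). *H2-Aa* and *H2-Eb1* were at 0.60 and 0.70 (adjusted P = 0.266 and 0.285), and *Cd74* at −0.35 (SE 0.354, adjusted P = 0.635). *Ms4a1* was at 0.85 (adjusted P = 0.437) and *Cxcr4* at 0.47 (adjusted P = 0.204). None of these 9 differences passed in this fit, which has no term for the replicate number.

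**Figure D4:**
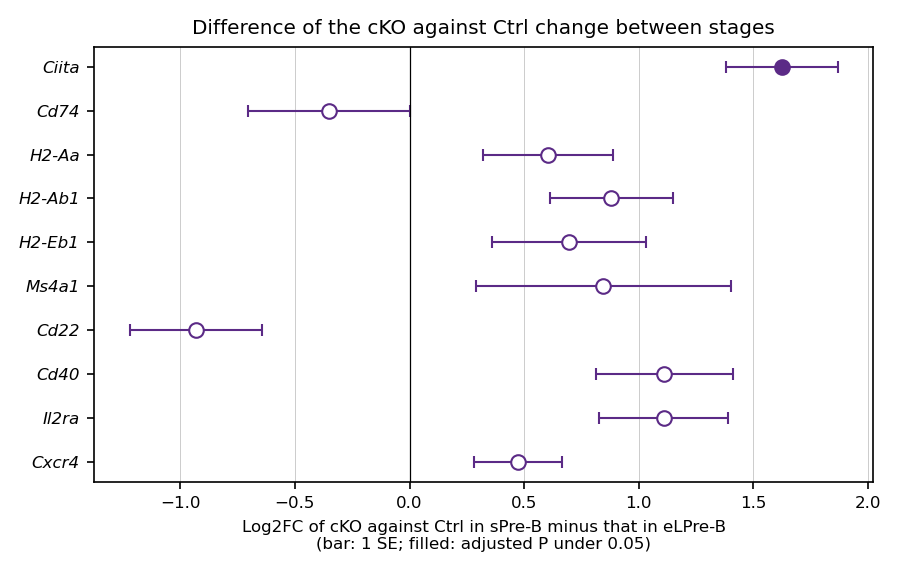
Log2FC of cKO against Ctrl in sPre-B cells minus that in early LPre-B cells for the 10 genes, with bars of 1 SE and filled symbols for an adjusted P under 0.05. *Ciita* at 1.62 is the filled symbol, *Cd22* at −0.93 lies farthest to the left and *Cd74* at −0.35 is the other gene left of 0.

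The genes whose profile over the 8 libraries lay nearest to that of *Ciita* were found by the root mean square distance of centred log2 CPM among 14823 genes with a mean of at least 50 counts. They were *Olfr543*, *Mettl27*, *Myh11*, *Senp8* and *Pld2*, at distances of 0.190 to 0.213 log2 units. *H2-Aa* was at rank 33 and *H2-Ab1* at rank 40, with distances of 0.324 and 0.330, *H2-Eb1* at rank 281 and *Cd74* at rank 12939. The distance is a description over 8 libraries that share a preparation and differ in depth.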

How the data were processed

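RNA was sequenced from 8 libraries in 4 groups, taken from the labels. Per the labels and the study's methods, rRNA-depleted directional libraries were read in pairs on a DNBSEQ-T7, and the authors used Trim Galore for trimming, HISAT2 in unstranded mode for alignment on mm10 and featureCounts for counting. The strand setting of the counting is not given in the sources used here. The deposited values are raw counts per gene, listed by Entrez identifier and paired with symbols from RefSeq (25275 of 27179 genes). Counts were fitted here in edgeR 4.0.16 (R 4.3.3) with TMM scaling, filterByExpr and the quasi-likelihood F test, with 1 mean per group, all 8 libraries in 1 fit and 4 residual degrees of freedom. P-values are two-sided and adjusted by Benjamini-Hochberg over 17700 genes, and called below 0.05. SE is the Log2FC divided by the square root of F. RPKM was computed here from the counts and exon lengths. Depth was 68516857 to 160426338 counts per library.

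The members and gene lists were chosen with earlier results of these data known. Besides the members, genes were named from among their direct partners, the 2 largest increases and decreases per list and comparison (not all of which are named; called, not overlapping, a minimum of 50 counts per library where the gene was higher), markers, the 5 genes nearest to *Ciita*, and *Relb* and the genes that differed between stages in the interaction, which were chosen after their values were seen. Alternatives were DESeq2 1.42.0, the edgeR likelihood-ratio test, median-ratio factors, no filter on low counts, immunoglobulin genes left out, a replicate block, a replicate block by genotype, only the libraries compared, and each library left out in turn. The procedure was tested on simulated data. Some genes and markers are not reported here.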

Additional observations from a re-analysis of the deposited data

Results flagged for a closer look

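The difference between cKO and Ctrl differed between the stages for *Ciita* by edgeR's quasi-likelihood test of the interaction, with a Log2FC larger by 1.62 in sPre-B cells (adjusted P = 0.0139). This call was lost in 3 fits with 1 library left out (adjusted P = 0.0516 to 0.0654). DESeq2, the likelihood-ratio test and the fit without the filter each called 4 members higher (*Ciita*, *H2-Ab1*, *Cd40* and *Il2ra*) and *Cd22* lower. Over all genes they called 1035, 1004 and 1078 higher and 704, 504 and 497 lower. At the early LPre-B stage *Ciita* was at 69.7 to 83.6 CPM in Ctrl and 85.4 to 92.2 CPM in cKO, and at the sPre-B stage at 27.7 to 31.6 and 86.3 to 126 CPM.

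Some genes of these lists are not reported here. Of the 87 others tested in 6 pathway lists that are no members, 9 had such an interaction, all 9 with a larger Log2FC in sPre-B cells, where 2.64% of all genes were called in this direction and 1.6% in the other. Among class II transcription factors they were *Foxo1*, a factor of early B cells, by 0.62 (adjusted P = 0.0468) and the repressor *Bcl6* by 1.43 (adjusted P = 0.0301). In CD40 signalling they were *Traf1* by 2.45 (adjusted P = 0.0178) and *Birc3* by 1.26 (adjusted P = 0.0187). *Pirb*, the inhibitory receptor, had 2.32 (adjusted P = 0.0341) and *Jak3*, the kinase of the common gamma chain, 0.85 (adjusted P = 0.0321). Among the positioning genes counted here they were *Cxcr5* by 2.68 (adjusted P = 0.0206), *S1pr1* by 0.67 (adjusted P = 0.0497) and *S1pr4*, a further sphingosine phosphate receptor, by 0.63 (adjusted P = 0.0419). No class II chain or loading gene was called in the interaction by the main edgeR fit, the quasi-likelihood test without a block. In that fit 5 were higher and 1 lower at an unadjusted P under 0.05, and DESeq2 called 3 higher and 0 lower. The likelihood-ratio test and the fit without the filter called *H2-Ab1*, and the replicate block called *H2-Aa*, *H2-Ab1* and *H2-Eb1*. Of the 24 tested genes of B maturation at the surface other than *Ms4a1*, 5 were called with a larger and 2 with a smaller Log2FC in sPre-B cells.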

How the results depend on the processing

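Of 770 alternative values of the 50 results on members, 706 had the direction and the side of the threshold reported, 14 lost the call, 42 gained one and 8 turned in direction. All 8 turned when 1 library was left out, and each result was uncalled. With 1 library left out in turn, the stage change in cKO ranged from −0.045 to 0.50 for *Ciita* and from −0.48 to 0.11 for *Cd22*. In early LPre-B cells the difference of cKO from Ctrl ranged from −0.055 to 0.11 for *Ms4a1* and from −0.23 to 0.37 for *Cd40*, and in sPre-B cells from −0.0081 to 1.39 for *Ms4a1* and from −0.45 to 0.14 for *Cd22*. The interaction ranged from −0.74 to 0.015 for *Cd74* and from −0.018 to 1.38 for *Ms4a1*. A group left with 1 library was assumed to vary like the others. The members lower with stage in cKO numbered 1 in a fit of only the libraries compared, and 0 to 3 with 1 library left out, beside 5804 and 4645 to 5704 of all genes. In early LPre-B cells 2 to 4 members were higher and 1 to 2 lower in cKO with 1 library left out. In the interaction the members called higher numbered 4 with the likelihood-ratio test, 4 with DESeq2, 4 without the filter and 0 to 2 with 1 library left out, and 1 was called lower with the likelihood-ratio test, with DESeq2 and without the filter. The cause of these changes was not tested. Over all genes, the interaction was called higher for 467 and lower for 283 genes, against 1004 and 504 with the likelihood-ratio test, 1035 and 704 with DESeq2, 1078 and 497 without the filter and 1360 and 782 with the replicate block by genotype. With 1 library left out, all genes called higher and lower numbered 84 to 569 and 42 to 333 in the interaction, 1634 to 2790 and 1289 to 2717 in early LPre-B cells and 2258 to 3381 and 1366 to 3256 in sPre-B cells labelled cKO.

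The replicate numbers give no shared animal, litter or day. Deviations of same-numbered libraries from their group means, over 17700 genes, correlated by 0.395 between the stages of Ctrl and by 0.254 between those of cKO. Between genotypes the correlations were 0.0514 to 0.198, and the 2 of 6 pairs of groups below 0.1 both crossed genotypes. The main fit has no term for a pairing of the stages within a genotype. With the replicate block, 6 members rose and 4 fell with stage in Ctrl, 5 rose and 3 fell in cKO, 5 were higher and 2 lower in early LPre-B and 6 higher and 0 lower in sPre-B cells labelled cKO, and 5 had a positive interaction, beside 598 genes with a positive and 354 with a negative interaction over all genes. Over all genes the block gave 5338 higher and 5604 lower with stage in Ctrl, 5788 and 5650 in cKO, and 2785 and 3261 in early LPre-B and 3714 and 2909 in sPre-B cells between genotypes. Outside the interaction, the calls gained were the fall of *H2-Aa* with stage in cKO (quasi-likelihood test, adjusted P = 0.00152) and the higher *H2-Ab1* in cKO early LPre-B cells (adjusted P = 0.00881). The members with a positive interaction were *Ciita* (1.62, adjusted P = 0.0142), *H2-Aa* (0.62, adjusted P = 0.0369), *H2-Ab1* (0.88, adjusted P = 0.0150), *H2-Eb1* (0.67, adjusted P = 0.0321) and *Il2ra* (1.10, adjusted P = 0.0252), of which *Ciita* was called without the block. With the replicate block by genotype, 7 had a positive interaction, the same 5 with *Cd40* and *Cxcr4*, and *Cd22* a negative one. Over all genes that fit called 1360 positive and 782 negative interactions.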
